A study of Homo sapiens with 9 samples.

Results

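The TNF superfamily genes examined here are all genes named TNFSF (ligands) or TNFRSF (receptors) plus a number and at most 1 letter, and 32 of the 41857 genes in the files carried such a symbol, 11 ligands and 21 receptors. Their RNA was measured by poly(A) RNA sequencing in MCF10A cells, an immortalized line of human breast epithelium that does not form tumours, with the genotype given as WT. The 3 groups were cells with human deltaNp63beta, cells with human deltaNp63alpha and cells with vector only, with 3 biological replicates each. All cultures of the 3 groups were induced with doxycycline at 500 ng/mL for 24 h, so the effect of doxycycline itself is shared by all 9 libraries and was not measured. Whether each line is 1 clone or a pool is not given in the sources used here. Both isoforms of the transcription factor p63 lack the N-terminal transactivation domain and share the DNA-binding domain, and they differ at the C-terminal end.

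TNF superfamily ligands are mostly trimeric membrane proteins that can be shed, and their receptors carry cysteine-rich repeats outside the cell. Death receptors hold a cytoplasmic death domain, which in some of them recruits the adaptor FADD and caspase-8. Decoy receptors bind ligand without passing on a death signal, and the other receptors recruit TRAF adaptors that lead to NF-kB and JNK signalling. In epithelia the family is best known for the TRAIL system, in which TNFSF10 (TRAIL) binds the death receptors TNFRSF10A and TNFRSF10B and the decoys TNFRSF10C and TNFRSF10D. The TRAIL receptor genes are known targets of p53, the relative of p63.

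Values are the authors' normalized estimated counts per gene, and 1 unit is close to 1 sequenced fragment. Library sums lay between 22483140 and 23213870, and the step between low values puts the depth before normalization at an estimated 20315835 to 24353488 fragments. Levels are given as mean ± SD (n = 3 libraries), and a change is the difference of mean log2(value + 1) ± SE, called a log2 fold change, with Benjamini-Hochberg adjusted p from limma over all 15108 genes that reached a value of 10 in at least 3 libraries. A change was called at an adjusted p under 0.05. TP63, the induced gene, stood at 5257 ± 1312 in deltaNp63beta cells, 6123 ± 1470 in deltaNp63alpha cells and 302.3 ± 38.1 in vector cells. Its level did not separate the isoform groups (difference -0.22 ± 0.21, adjusted p = 0.479). The epithelial label fits the 7 epithelial markers, which include the basal keratin gene KRT5 and were all detected. Their summed value ranged from 205633.1 to 212944.5 in deltaNp63beta libraries, from 125950.0 to 131782.5 in deltaNp63alpha libraries and from 82568.5 to 86865.6 in vector libraries. KRT5 alone averaged 146980 in deltaNp63beta, 92598 in deltaNp63alpha and 55464 in vector cells. Not all 7 markers followed the sum. With deltaNp63alpha against vector, 4 rose, KRT8 fell (-0.30 ± 0.05, adjusted p = 0.00146), and CLDN1 and KRT18 were not called. With deltaNp63beta against vector, 6 rose and KRT8 was not called. Of 9 leukocyte markers, relevant because many superfamily genes are known from immune cells, the T cell gene CD3E and the B cell gene MS4A1 stayed under 3 in every library and the pan-leukocyte gene PTPRC under 5. The summed value of the 9 ranged from 1240.7 to 1371.1 in deltaNp63beta libraries, from 1280.7 to 1642.9 in deltaNp63alpha libraries and from 1872.0 to 2088.6 in vector libraries. The 5 of the 9 that were tested all passed with deltaNp63beta against vector, in both directions. CD14 averaged 170.3 in deltaNp63beta, 19.1 in deltaNp63alpha and 23.6 in vector cells (deltaNp63beta against vector 2.77 ± 0.41), and LAPTM5 rose as well (0.96 ± 0.16). CD68 averaged 611 in deltaNp63beta, 842 in deltaNp63alpha and 1110.5 in vector cells (-0.86 ± 0.09), and ITGB2 (-1.87 ± 0.11) and CSF1R (-0.91 ± 0.24) fell with it. Endothelial markers (5 genes, CDH5 under 3 in every library) summed to between 110.3 and 140.5 in deltaNp63beta, 166.4 and 171.7 in deltaNp63alpha and 203.7 and 274.8 in vector libraries. The 7 fibroblast markers summed to between 12495.9 and 13570.5 in deltaNp63beta, 7786.6 and 7912.2 in deltaNp63alpha and 10600.6 and 10941.6 in vector libraries. Of these 7, DCN fell with deltaNp63beta (-2.87 ± 0.11) while FBLN1, MFAP5 and COL1A1 rose. The part of these marker differences in the results was not tested. All 9 libraries are labelled as the 1 line MCF10A, so these sums are not read as amounts of leukocytes, endothelial cells or fibroblasts. In a bulk sample of the line, a change in all cells and a change in some of them cannot be told apart.

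A total of 20 members passed the filter on low values, 9 ligands and 11 receptors, and 12 members did not. With deltaNp63beta against vector, 6 of the 20 rose and 2 fell, 40.0%, where 41.3% of all genes tested were called (21.8% higher and 19.5% lower), so that the share is near the background. With deltaNp63alpha against vector, 5 rose and 2 fell, 35.0%, beside 14.5% of all genes (8.13% higher and 6.37% lower). The deltaNp63alpha count fell to 4 without deltaNp63alpha replicate 1, deltaNp63alpha replicate 2 or vector replicate 3, and to 3 without vector replicate 2. Between the isoforms, 6 were higher and 4 lower with deltaNp63beta than with deltaNp63alpha, 50%, beside 32.9% of all genes (17.4% higher and 15.5% lower). The median change over the 20 was 0.14 in both comparisons with vector and 0.19 between the isoforms, against -0.00, -0.01 and -0.00 over all genes tested (deltaNp63beta against vector, deltaNp63alpha against vector and between the isoforms). Both comparisons with vector use the same 3 vector libraries. A total of 12 of the 20 members were called in at least 1 comparison, where 49.1% of all genes tested were. The 3 that passed in both comparisons with vector, TNFSF10, TNFSF15 and TNFRSF10A, rose in both, as did 6.06% of all genes tested.

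**Figure D1:**
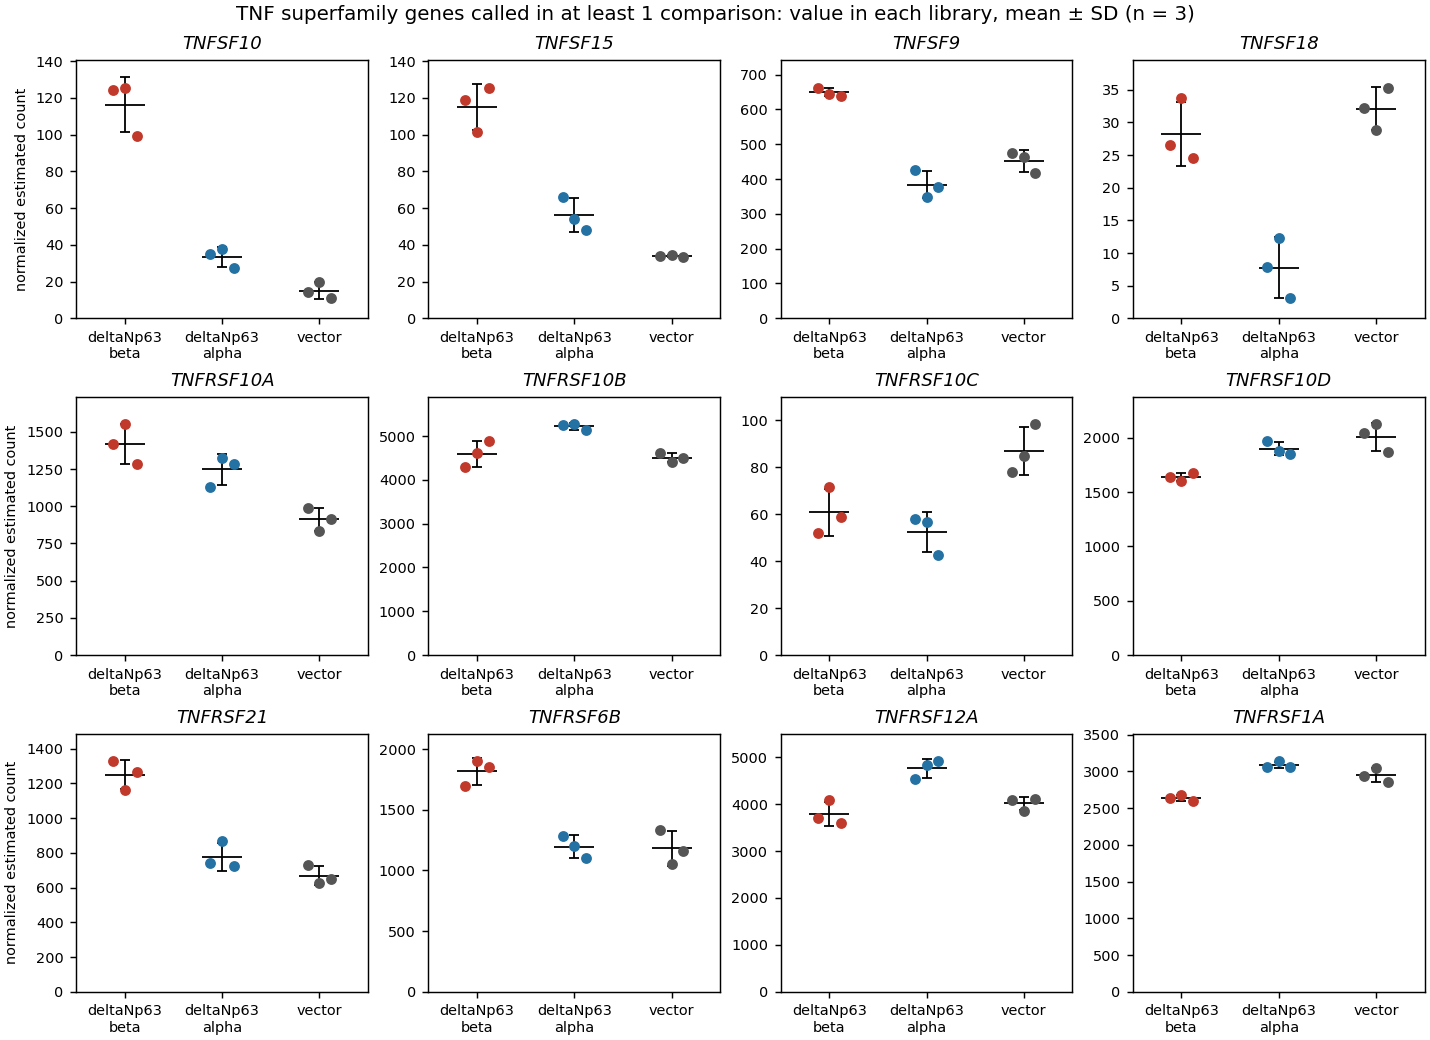
Normalized estimated count (y axis, from 0) of the 12 TNF superfamily genes called in at least 1 comparison, in each library of deltaNp63beta, deltaNp63alpha and vector cells. Points are libraries and bars are mean ± SD (n = 3); TNFSF10 lies between 98.99 and 125.5 in deltaNp63beta libraries, above every library of the other groups.

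TNFSF10, which encodes TRAIL (ENSG00000121858, GRCh38 chromosome 3, 172505508 to 172523507, minus strand), had the largest change against vector of the tested members in deltaNp63beta cells. Its values were 124.0, 125.5 and 98.99 in deltaNp63beta libraries, 35.2, 37.8 and 27.5 in deltaNp63alpha libraries, and 14.2, 19.97 and 10.9 in vector libraries. The 3 groups did not overlap, and the level followed the order deltaNp63beta, deltaNp63alpha, vector. The change against vector was 2.90 ± 0.27 with deltaNp63beta (adjusted p = 8.53e-06), a 7.74-fold ratio of means, and 1.13 ± 0.27 with deltaNp63alpha (adjusted p = 0.0173), a 2.23-fold ratio. DeltaNp63beta exceeded deltaNp63alpha by 1.77 ± 0.27 (adjusted p = 0.000537). The smaller change with deltaNp63alpha missed the threshold when deltaNp63alpha replicate 1, deltaNp63alpha replicate 2 or vector replicate 3 was left out (adjusted p = 0.054, 0.0662 and 0.0575) and when only the libraries of deltaNp63alpha and vector entered the fit (adjusted p = 0.059).

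TNFSF15 (ENSG00000181634, GRCh38 chromosome 9, 114784635 to 114806126, minus strand) encodes TL1A, the ligand of the death receptor TNFRSF25, and it showed the same order of groups. Its values were 118.8, 101.3 and 125.5 in deltaNp63beta libraries, 66.2, 53.9 and 47.96 in deltaNp63alpha libraries, and 34.1, 34.4 and 33.2 in vector libraries. The groups were again apart, and the vector libraries lay within 2 units of each other. The rise was 1.73 ± 0.20 with deltaNp63beta (adjusted p = 3.68e-05) and 0.70 ± 0.20 with deltaNp63alpha (adjusted p = 0.0372), and deltaNp63beta exceeded deltaNp63alpha by 1.03 ± 0.20 (adjusted p = 0.0021). With deltaNp63alpha the call did not survive removal of deltaNp63alpha replicate 1, deltaNp63alpha replicate 2, deltaNp63beta replicate 1, deltaNp63beta replicate 3 or a single vector library (adjusted p from 0.0511 to 0.123), or a fit of only the libraries of deltaNp63alpha and vector (adjusted p = 0.0819).

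A further ligand gene that was higher with deltaNp63beta was TNFSF9 (ENSG00000125657, GRCh38 chromosome 19, 6530999 to 6535928, plus strand), which encodes the co-stimulator of the T cell receptor TNFRSF9. It had 662, 646 and 639 in deltaNp63beta libraries, 426, 349 and 378 in deltaNp63alpha libraries, and 475, 462 and 416 in vector libraries. All 3 deltaNp63beta libraries were above the rest, while the deltaNp63alpha and vector libraries overlapped. The change was 0.53 ± 0.09 for deltaNp63beta against vector (adjusted p = 0.000872) and 0.76 ± 0.09 for deltaNp63beta against deltaNp63alpha (adjusted p = 0.000105). With deltaNp63alpha against vector it was -0.23 ± 0.09 (95% interval -0.44 to -0.03, adjusted p = 0.127) and was not called.

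The promoter windows of the 3 ligand genes that were higher with deltaNp63beta than in both other groups are printed. That of TNFRSF21, the receptor gene with the largest rise with deltaNp63beta, is printed too. TNFRSF6B was also higher with deltaNp63beta than in both other groups, and its window is not printed. The printed windows were chosen for these rises, and shared regulation was not tested. Each runs from 250 bases before the RefSeq gene start to 50 bases after it, on build GRCh38.p14, read 5′ to 3′ on the gene's strand. They are chr3:172523381-172523680 (minus) for TNFSF10, chr9:114792481-114792780 (minus) for TNFSF15, chr19:6530776-6531075 (plus) for TNFSF9 and chr6:47309856-47310155 (minus) for TNFRSF21. The RefSeq start used for TNFSF15 lies inside the GENCODE span of the gene, not at its 5′ end, 114806126. The TNFSF15 window therefore does not cover the gene start at that end. Capitals mark matches, on either strand, to the motifs searched.
TNFSF10: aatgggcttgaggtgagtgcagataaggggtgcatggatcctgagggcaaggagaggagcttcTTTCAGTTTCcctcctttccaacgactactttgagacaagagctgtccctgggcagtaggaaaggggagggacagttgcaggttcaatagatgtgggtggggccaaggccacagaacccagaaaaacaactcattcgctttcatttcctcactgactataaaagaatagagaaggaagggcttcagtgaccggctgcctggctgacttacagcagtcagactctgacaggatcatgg
TNFSF15: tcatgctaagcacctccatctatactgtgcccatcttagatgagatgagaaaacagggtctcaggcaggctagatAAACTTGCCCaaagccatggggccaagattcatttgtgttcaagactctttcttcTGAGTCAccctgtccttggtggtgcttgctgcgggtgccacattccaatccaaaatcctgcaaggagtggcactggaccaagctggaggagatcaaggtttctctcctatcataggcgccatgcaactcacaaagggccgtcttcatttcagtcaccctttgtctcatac
TNFSF9: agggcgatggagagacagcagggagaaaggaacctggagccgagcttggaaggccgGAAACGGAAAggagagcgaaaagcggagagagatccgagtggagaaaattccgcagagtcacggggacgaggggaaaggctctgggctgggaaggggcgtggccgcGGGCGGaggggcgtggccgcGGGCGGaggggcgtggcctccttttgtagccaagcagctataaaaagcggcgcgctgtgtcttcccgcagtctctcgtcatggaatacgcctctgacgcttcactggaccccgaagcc
TNFRSF21: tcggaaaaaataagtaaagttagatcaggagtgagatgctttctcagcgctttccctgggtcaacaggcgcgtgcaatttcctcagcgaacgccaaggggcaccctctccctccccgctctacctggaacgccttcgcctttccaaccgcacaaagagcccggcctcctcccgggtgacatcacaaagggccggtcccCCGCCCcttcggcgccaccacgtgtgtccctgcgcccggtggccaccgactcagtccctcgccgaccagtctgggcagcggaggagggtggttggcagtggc

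The motifs searched were the p53 family half-site (the decamer RRRCWWGYYY), the NF-kB site, the AP-1 site TGANTCA, the GAS element TTCNNNGAA, the core of the interferon-stimulated response element and the GC box GGGCGG. Over 27305 windows of the same length, they were present in 6.54%, 10.8%, 7.76%, 7.88%, 3.65% and 44.6%, in that order. The TNFSF10 window held 1 interferon response core, 187 bases before the start, and no other motif of the set. In the TNFSF15 window there was 1 p53 family half-site, 175 bases before the inner RefSeq start, and 1 AP-1 site, 120 bases before it. The TNFSF9 window held 1 interferon response core, 194 bases before the start, and 2 GC boxes, and the TNFRSF21 window 1 GC box. The GC boxes do not overlap the other matches. No motif was common to the 4 windows, and a match is a run of letters, not a measured binding site. RefSeq windows were found for 14 of the 20 tested members. None was found for TNFRSF10A, TNFRSF10B, TNFRSF10C, TNFRSF10D, TNFRSF12A and TNFSF12, so the TRAIL receptor genes were not searched for any motif. Among the 14, the matches were not limited to genes that rose. The interferon response core was in 4 of the 14, among them the uncalled TNFSF13B and TNFSF14, and the AP-1 site in 3, among them the uncalled TNFRSF9 and TNFSF14. The p53 family half-site was in 1 and the GC box in 8, TNFRSF6B included, while the NF-kB site was in 3 and the GAS element in 1, all of them uncalled members.

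The TRAIL receptor genes lie side by side on chromosome 8 and did not move as 1 group. TNFRSF10A, a death receptor (GRCh38 chromosome 8, 23190452 to 23225126, minus strand), had 1418, 1549 and 1284 in deltaNp63beta libraries, 1129.8, 1325 and 1286 in deltaNp63alpha libraries, and 989.7, 834 and 915 in vector libraries. Every library of either isoform was above every vector library, and the isoform groups overlapped. The rise was 0.63 ± 0.09 with deltaNp63beta (adjusted p = 0.000206) and 0.45 ± 0.09 with deltaNp63alpha (adjusted p = 0.00654). The difference between the isoforms was 0.18 ± 0.09 (95% interval -0.02 to 0.38, adjusted p = 0.15), which did not pass.

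TNFRSF10B, the other TRAIL death receptor (chromosome 8, 23020133 to 23069179, minus strand), passed against vector with deltaNp63alpha and not with deltaNp63beta. Its values were 4295, 4605 and 4889 in deltaNp63beta libraries, 5261, 5268 and 5141 in deltaNp63alpha libraries, and 4612, 4408 and 4502 in vector libraries. The deltaNp63alpha libraries were the highest of the 9 and lay close together. The rise with deltaNp63alpha was small, 0.21 ± 0.05 (adjusted p = 0.0129), and deltaNp63beta was lower than deltaNp63alpha by -0.19 ± 0.05 (adjusted p = 0.0125). With deltaNp63beta against vector it was 0.03 ± 0.05 (95% interval -0.08 to 0.13, adjusted p = 0.697). The deltaNp63alpha call was lost without vector replicate 2 (adjusted p = 0.0538), and without limma's mean-variance trend both calls were lost (adjusted p = 0.0612 against vector and 0.0501 between the isoforms). TNFRSF10B overlaps RHOBTB2 on the opposite strand, and RHOBTB2 rose with both isoforms (0.84 ± 0.08 with deltaNp63beta and 0.64 ± 0.08 with deltaNp63alpha). Whether the counting used strand is not given in the sources used here.

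The decoy gene TNFRSF10D, whose product has a truncated death domain (chromosome 8, 23135588 to 23164030, minus strand), was lower with deltaNp63beta. Its values were 1639, 1607 and 1681 in deltaNp63beta libraries, 1973, 1876 and 1856 in deltaNp63alpha libraries, and 2042, 2124 and 1872 in vector libraries. All deltaNp63beta libraries were below all others, and deltaNp63alpha and vector libraries overlapped. The change was -0.29 ± 0.06 for deltaNp63beta against vector (adjusted p = 0.00173), -0.21 ± 0.06 for deltaNp63beta against deltaNp63alpha (adjusted p = 0.015) and -0.08 ± 0.06 for deltaNp63alpha against vector (adjusted p = 0.411). The difference between the isoforms missed the threshold once deltaNp63alpha replicate 1 or deltaNp63beta replicate 2 was removed (adjusted p = 0.0541 and 0.0515).

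TNFRSF10C, the decoy anchored by a lipid (chromosome 8, 23102590 to 23117437, plus strand), had low values of 51.9, 71.8 and 58.6 in deltaNp63beta libraries, 58.2, 56.7 and 42.8 in deltaNp63alpha libraries, and 77.8, 84.97 and 98.2 in vector libraries. Both isoform groups lay below all vector libraries and overlapped each other. The change was -0.52 ± 0.21 with deltaNp63beta (adjusted p = 0.0711, not called) and -0.72 ± 0.21 with deltaNp63alpha (adjusted p = 0.0415). The difference between these changes was 0.21 ± 0.21 (95% interval -0.26 to 0.67, adjusted p = 0.49). That deltaNp63alpha call did not survive removal of a single deltaNp63alpha library, a single vector library or deltaNp63beta replicate 3 (adjusted p from 0.0525 to 0.145). The 4 TRAIL receptor genes are close relatives, so the authors' estimation could divide shared fragments between them.

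Within a library, the ratio of one TRAIL receptor gene to another does not depend on the scaling between libraries. Its level also depends on transcript length, so only its difference between groups is read here. The log2 ratio of TNFRSF10A to TNFRSF10D was -0.21, -0.05 and -0.39 in deltaNp63beta libraries, -0.80, -0.50 and -0.53 in deltaNp63alpha libraries, and -1.04, -1.35 and -1.03 in vector libraries. The groups did not overlap and followed the same order as TNFSF10. The ratio of TNFRSF10B to TNFRSF10D averaged 1.48 ± 0.08 in deltaNp63beta, 1.46 ± 0.04 in deltaNp63alpha and 1.17 ± 0.11 in vector libraries, with the isoform groups overlapping each other and both above vector. The ratio of the decoys, TNFRSF10C to TNFRSF10D, averaged -4.77 ± 0.26 in deltaNp63beta, -5.19 ± 0.22 in deltaNp63alpha and -4.54 ± 0.25 in vector libraries. These ratios were chosen after the values were seen and carry no test.

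**Figure D2:**
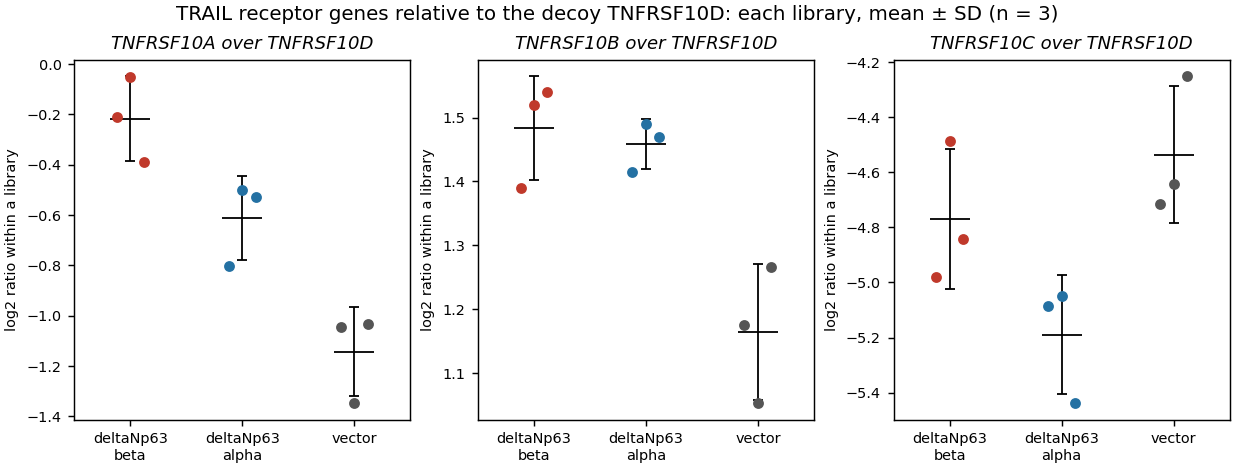
Log2 ratio within each library (y axis) of TNFRSF10A, TNFRSF10B and TNFRSF10C to the decoy TNFRSF10D, for deltaNp63beta, deltaNp63alpha and vector cells. Points are libraries and bars are mean ± SD (n = 3); TNFRSF10A over TNFRSF10D lies between -0.39 and -0.05 in deltaNp63beta, between -0.80 and -0.50 in deltaNp63alpha and between -1.35 and -1.03 in vector libraries.

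TNFRSF21, an orphan-type death receptor also called death receptor 6 (ENSG00000146072, GRCh38 chromosome 6, 47231532 to 47309905, minus strand), had the largest rise with deltaNp63beta among the tested receptor genes. Its values were 1328, 1161 and 1264 in deltaNp63beta libraries, 741, 869 and 723 in deltaNp63alpha libraries, and 732, 626 and 650.3 in vector libraries. The deltaNp63beta libraries stood apart from the others, and deltaNp63alpha replicate 3 lay below vector replicate 1. The change was 0.90 ± 0.09 with deltaNp63beta against vector (adjusted p = 1.42e-05), 0.69 ± 0.09 between the isoforms (adjusted p = 0.000185) and 0.21 ± 0.09 with deltaNp63alpha against vector (95% interval 0.01 to 0.41, adjusted p = 0.151).

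TNFRSF6B encodes a soluble decoy that binds the products of FASLG, TNFSF14 and TNFSF15 (ENSG00000243509, GRCh38 chromosome 20, 63696651 to 63698684, plus strand). It had 1692, 1899.9 and 1855 in deltaNp63beta libraries, 1286, 1198 and 1099 in deltaNp63alpha libraries, and 1334, 1050.2 and 1162 in vector libraries. The deltaNp63beta group was again above all other libraries. The rise was 0.62 ± 0.09 against vector (adjusted p = 0.000231) and 0.61 ± 0.09 against deltaNp63alpha (adjusted p = 0.000443), and deltaNp63alpha against vector gave 0.02 ± 0.09 (95% interval -0.18 to 0.22, adjusted p = 0.928). TNFRSF6B shares its strand and position with the readthrough gene RTEL1-TNFRSF6B, so its value is uncertain where fragments fit both. That readthrough gene was at 109.6 to 144.5 in deltaNp63beta, 122.4 to 168.7 in deltaNp63alpha and 115.2 to 124.1 in vector libraries (deltaNp63beta against vector 0.07 ± 0.17, adjusted p = 0.766).

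The signalling receptors of the TNFSF15 and TNFSF9 ligands, TNFRSF25 and TNFRSF9, were called in no comparison. TNFRSF25, the death receptor for TL1A, averaged 143.7 ± 36.6 in deltaNp63beta, 148.7 ± 34.5 in deltaNp63alpha and 112.6 ± 3.31 in vector cells, and all 3 comparisons were uncalled (adjusted p = 0.266, 0.311 and, between the isoforms, 0.883). TNFRSF25 overlaps PLEKHG5 on the same strand, and PLEKHG5 rose with deltaNp63beta (0.39 ± 0.06). TNFRSF9 was low, between 3.44 and 16.4 in deltaNp63beta libraries, between 0.83 and 10.4 in deltaNp63alpha libraries, and at 7.28, 8.76 and 44.5 in vector libraries, so that 1 vector library set its group's level.

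TNFRSF12A, the receptor of the TWEAK ligand TNFSF12 (ENSG00000006327, GRCh38 chromosome 16, 3018445 to 3022383, plus strand), was higher with deltaNp63alpha. It had 3698, 4088 and 3603 in deltaNp63beta libraries, 4541, 4824 and 4916 in deltaNp63alpha libraries, and 4094, 3862 and 4112 in vector libraries. The deltaNp63alpha libraries were above all others. The rise with deltaNp63alpha was 0.24 ± 0.06 (adjusted p = 0.0126), and deltaNp63beta was lower than deltaNp63alpha by -0.33 ± 0.06 (adjusted p = 0.000935), while deltaNp63beta against vector was -0.09 ± 0.06 (adjusted p = 0.246). The deltaNp63alpha call was lost without deltaNp63alpha replicate 3 or vector replicate 2 (adjusted p = 0.0558 each) and without the mean-variance trend (adjusted p = 0.0596). TNFSF12 itself was at 212 ± 28.0 in deltaNp63beta, 173.0 ± 12.9 in deltaNp63alpha and 177.4 ± 22.2 in vector cells and was called in no comparison.

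TNFRSF1A, the main receptor of TNF and a death domain protein (ENSG00000067182, GRCh38 chromosome 12, 6328757 to 6342114, minus strand), changed little but with small spread. It had 2632, 2674 and 2598 in deltaNp63beta libraries, 3063, 3138 and 3063 in deltaNp63alpha libraries, and 2942, 3048 and 2857 in vector libraries. The deltaNp63beta libraries were the lowest, and each deltaNp63alpha library exceeded each vector library. The change was -0.16 ± 0.04 for deltaNp63beta against vector (adjusted p = 0.00932) and -0.23 ± 0.04 for deltaNp63beta against deltaNp63alpha (adjusted p = 0.00161), and 0.07 ± 0.04 for deltaNp63alpha against vector (adjusted p = 0.349). TNFRSF11A, the receptor RANK, averaged 138.9 ± 29.1 in deltaNp63beta, 224.5 ± 62.0 in deltaNp63alpha and 154.7 ± 40.8 in vector cells. It was not called, and deltaNp63beta against deltaNp63alpha (-0.67 ± 0.25, adjusted p = 0.0605) passed without deltaNp63alpha replicate 2, deltaNp63beta replicate 2 or vector replicate 1 (adjusted p = 0.0221, 0.0443 and 0.0416).

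Among the low ligand genes, TNFSF18, the ligand of the T cell co-stimulator TNFRSF18 (ENSG00000120337, GRCh38 chromosome 1, 173039960 to 173050963, minus strand), was lower with deltaNp63alpha only. It had 26.5, 33.8 and 24.5 in deltaNp63beta libraries, 7.91, 12.3 and 3.06 in deltaNp63alpha libraries, and 32.2, 28.8 and 35.3 in vector libraries. The deltaNp63alpha libraries were below all others, and deltaNp63beta and vector libraries overlapped. The change was -2.07 ± 0.43 for deltaNp63alpha against vector (adjusted p = 0.0079) and 1.89 ± 0.43 for deltaNp63beta against deltaNp63alpha (adjusted p = 0.00623), while deltaNp63beta against vector was -0.19 ± 0.43 (95% interval -1.14 to 0.77, adjusted p = 0.761). Of the 9 libraries, 7 reached the filter's value of 10, among them all deltaNp63beta and vector libraries.

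TNFSF14, the ligand LIGHT, had 50.9, 34.4 and 57.5 in deltaNp63beta libraries, 18.1, 19.1 and 39.3 in deltaNp63alpha libraries, and 35.8, 71.9 and 60.9 in vector libraries. The deltaNp63alpha libraries were low except replicate 3, which overlapped both other groups. No comparison was called (deltaNp63alpha against vector -1.14 ± 0.37, adjusted p = 0.0635), although that change passed without deltaNp63alpha replicate 3 or vector replicate 1 (adjusted p = 0.026 and 0.0368). Without deltaNp63alpha replicate 3, the difference between the isoforms passed as well (adjusted p = 0.0246). TNFSF13, which encodes the B cell factor APRIL, averaged 268 ± 25.5 in deltaNp63beta, 266 ± 12.1 in deltaNp63alpha and 275 ± 22.1 in vector cells and was called in no comparison. TNFSF12 and TNFSF13 both overlap the readthrough gene TNFSF12-TNFSF13, which was at most 11.2 in any library.

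TNFSF4, the ligand of TNFRSF4, was at 9.93 to 12.1 in deltaNp63beta, 9.40 to 23.7 in deltaNp63alpha and 2.75 to 13.0 in vector libraries. Its change with deltaNp63alpha, 1.36 ± 0.58, was not called (adjusted p = 0.152) but passed without vector replicate 1 (adjusted p = 0.0485). TNFSF13B, the B cell factor BAFF, was at 5.54 to 10.6 in deltaNp63beta, 5.64 to 11.9 in deltaNp63alpha and 1.20 to 27.7 in vector libraries, and vector replicate 3 held the 27.7. That library also held the 44.5 of TNFRSF9.

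**Figure D3:**
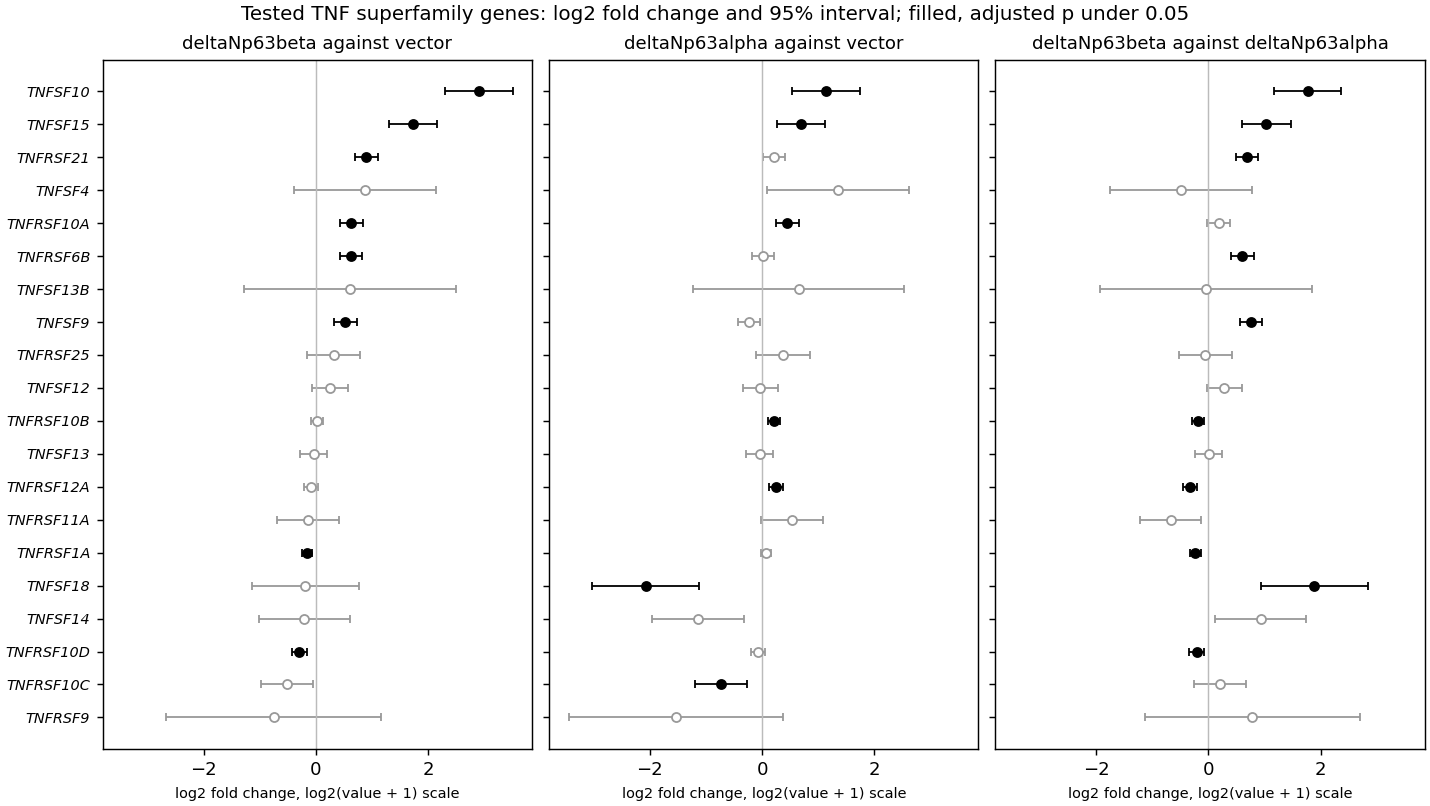
Log2 fold change with its 95% interval (x axis, log2(value + 1) scale) of the 20 tested TNF superfamily genes (y axis) for deltaNp63beta against vector, deltaNp63alpha against vector and deltaNp63beta against deltaNp63alpha. Filled points have an adjusted p under 0.05; TNFSF10 is at 2.90 and 1.13 with deltaNp63beta and deltaNp63alpha against vector and at 1.77 between the isoforms, and TNFSF18 is the only filled point below -1, at -2.07 with deltaNp63alpha.

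The 12 members under the filter were at most 18.7 in any library, and 2 of them, the RANK ligand gene TNFSF11 and the co-stimulatory receptor gene TNFRSF4, were listed at 0 in all 9. The B cell receptor genes TNFRSF13B and TNFRSF17 reached 1.99 and 1.56, and TNFRSF13C 5.10. TNFSF8 reached 2.71, TNFRSF8 3.98, TNFRSF14 4.84, TNFRSF18 5.90 and TNFRSF11B, the soluble decoy osteoprotegerin, 9.74. TNFRSF19 had 18.7 in 1 deltaNp63beta library and at most 7.90 in the others, and TNFRSF1B had 14.4 in 1 deltaNp63alpha library and at most 8.90 in the others. These values are too few fragments for a comparison. TNFRSF18 is thus near the limit of detection in the cells in which its ligand gene TNFSF18 differed between groups.

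Superfamily genes with other symbols were described from a separate list. Of 7 ligand genes, 2 passed the filter. CD70, the ligand of CD27, had 1173, 1153 and 949 in deltaNp63beta libraries, 437, 344 and 374 in deltaNp63alpha libraries, and 502, 401 and 421 in vector libraries. Only the deltaNp63beta libraries stood apart, and the rise was 1.30 ± 0.12 against vector (adjusted p = 7.69e-06) and 1.5 ± 0.12 against deltaNp63alpha (adjusted p = 4.41e-06). EDA rose with deltaNp63beta (0.78 ± 0.18), while TNF itself reached only 0.98 in any library and LTA was listed at 0 in all.

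Of 8 receptor genes with other symbols, 6 were tested, and 3 rose and 1 fell with each isoform against vector. That is 66.7% of them in each comparison, beside 41.3% of all genes tested with deltaNp63beta and 14.5% with deltaNp63alpha. The list is short and was chosen with earlier results of these data known, and the difference in share was not tested. The neurotrophin receptor gene NGFR had 172.7, 134.2 and 148.0 in deltaNp63beta libraries, 106.1, 97.9 and 99.4 in deltaNp63alpha libraries, and 23.8, 30.8 and 32.0 in vector libraries, with no overlap between groups. It rose by 2.36 ± 0.18 with deltaNp63beta and 1.78 ± 0.18 with deltaNp63alpha. Between the isoforms it was 0.57 ± 0.18 higher with deltaNp63beta (adjusted p = 0.0343). That call was lost under 8 of the 19 alternatives (adjusted p up to 0.121), among them removal of a single deltaNp63alpha library. FAS, the receptor of the Fas ligand, rose by 0.53 ± 0.07 with deltaNp63beta and 0.44 ± 0.07 with deltaNp63alpha. LTBR, the lymphotoxin beta receptor gene, rose by 0.60 ± 0.05 with deltaNp63beta and 0.33 ± 0.05 with deltaNp63alpha. EDA2R, a receptor of ectodysplasin, changed by -0.81 ± 0.12 with deltaNp63beta and -0.51 ± 0.12 with deltaNp63alpha. The deltaNp63alpha call of EDA2R was lost without deltaNp63alpha replicate 3 or vector replicate 1 (adjusted p = 0.0626 and 0.0589).

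Of 32 adaptor, kinase and ubiquitin enzyme genes, 9 rose and 8 fell with deltaNp63beta against vector, and 2 rose and 3 fell with deltaNp63alpha. These are 53.1% and 15.6% of the list, beside 41.3% and 14.5% of all genes tested. BIRC3, a ubiquitin ligase and NF-kB target, was the only gene of the pathway lists called in opposite directions. It had 2639, 2312 and 2882 in deltaNp63beta libraries, 1011, 783 and 766 in deltaNp63alpha libraries, and 1850.0, 1999.5 and 2197 in vector libraries. The 3 groups did not overlap. BIRC3 was 0.37 ± 0.11 higher with deltaNp63beta (adjusted p = 0.0217) and changed by -1.25 ± 0.11 with deltaNp63alpha (adjusted p = 2.28e-05), but the deltaNp63beta call did not survive removal of deltaNp63beta replicate 1, deltaNp63beta replicate 3, vector replicate 1 or vector replicate 2 (adjusted p from 0.0548 to 0.0818).

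TNFAIP3, which encodes A20, an inhibitor of NF-kB signalling that NF-kB induces, had 1981, 1945 and 2139.9 in deltaNp63beta libraries, 639, 686 and 955 in deltaNp63alpha libraries, and 991, 899 and 1050.0 in vector libraries. The deltaNp63beta libraries stood apart. It rose by 1.05 ± 0.13 with deltaNp63beta (adjusted p = 5.88e-05) and differed by 1.43 ± 0.13 between the isoforms (adjusted p = 9.1e-06), and its change with deltaNp63alpha against vector, -0.39 ± 0.13, was not called (adjusted p = 0.0684). RBCK1, a subunit of the linear ubiquitin ligase complex, rose with both isoforms (0.91 ± 0.05 with deltaNp63beta and 0.34 ± 0.05 with deltaNp63alpha). TNIP1, which binds A20, and MAP3K5, the kinase ASK1, rose with deltaNp63beta (0.46 ± 0.05 and 0.70 ± 0.07). IKBKG, the regulatory subunit of the IKK complex, changed by -0.64 ± 0.08 with deltaNp63beta and -0.42 ± 0.08 with deltaNp63alpha, and CYLD, a deubiquitinase, by -0.38 ± 0.06 with deltaNp63beta and -0.50 ± 0.06 with deltaNp63alpha.

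Of 12 tested death execution genes, 4 rose and 1 fell with deltaNp63beta against vector, and 2 rose with deltaNp63alpha and none fell. These shares, 41.7% with deltaNp63beta and 16.7% with deltaNp63alpha, are near the 41.3% and 14.5% of all genes tested. BAK1, a pore-forming protein of mitochondria, rose by 0.49 ± 0.05 with deltaNp63beta and 0.46 ± 0.05 with deltaNp63alpha. CFLAR, the inhibitor of caspase-8 at death receptors, rose by 0.49 ± 0.06 with deltaNp63beta and 0.29 ± 0.06 with deltaNp63alpha. CASP10 rose with deltaNp63beta (1.41 ± 0.28), as did BID (0.50 ± 0.11), and BAX fell (-0.31 ± 0.09), not called without vector replicate 1 (adjusted p = 0.053). Between the isoforms, CASP10 and CFLAR were higher and BAX lower with deltaNp63beta, and none of these calls held under every alternative. CASP10 missed the threshold without deltaNp63alpha replicate 3 or deltaNp63beta replicate 1 (adjusted p = 0.0544 and 0.0612), and CFLAR without deltaNp63alpha replicate 3 or deltaNp63beta replicate 2 (adjusted p = 0.101 and 0.0878) or with no filter on low values (adjusted p = 0.0542). The BAX call was lost on removal of a single deltaNp63alpha library, deltaNp63beta replicate 1 or deltaNp63beta replicate 3 (adjusted p from 0.0562 to 0.12) and without the mean-variance trend (adjusted p = 0.0816). RIPK3, the kinase of necroptosis, was listed at 0 in every library.

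Of 8 genes for NF-kB subunits and inhibitors, 3 rose and 1 fell with deltaNp63beta, and 1 rose with deltaNp63alpha. These shares, 50% with deltaNp63beta and 12.5% with deltaNp63alpha, are near the 41.3% and 14.5% of all genes tested. NFKBIA, the inhibitor IkB-alpha, rose by 0.70 ± 0.08 with deltaNp63beta, NFKBIE by 0.98 ± 0.16 and REL by 0.40 ± 0.09, and RELA fell (-0.33 ± 0.10), which missed the threshold on removal of deltaNp63beta replicate 1, vector replicate 1 or vector replicate 2 (adjusted p from 0.0593 to 0.0919). NFKBIE was the gene that rose with deltaNp63alpha (0.60 ± 0.16, adjusted p = 0.032), a call that did not survive removal of a single deltaNp63alpha library, vector replicate 1 or vector replicate 2 (adjusted p from 0.0696 to 0.104). Between the isoforms, 32.9% of all genes tested were called, 17.4% higher and 15.5% lower with deltaNp63beta than with deltaNp63alpha. Of the 32 adaptor, kinase and ubiquitin enzyme genes, 6 were higher and 5 lower, and this 34.4% is near that background. So is the 33.3% of the 6 receptor genes with other symbols, of which 2 were higher. Of the 12 death execution genes 2 were higher and 1 lower, of the 8 NF-kB genes 2 were higher, and of 2 ligand genes 1. Across all these lists, 13 pathway genes were higher and 6 lower, and their share was not tested against the background. The 6 became 2 on removal of a single deltaNp63alpha library or deltaNp63beta replicate 1, and 3 on removal of deltaNp63beta replicate 2 or vector replicate 3, and the calls of BAX, FADD, IKBKG and TNIP2 among them were each lost under 7 to 12 of the 19 alternatives.

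**Figure D4:**
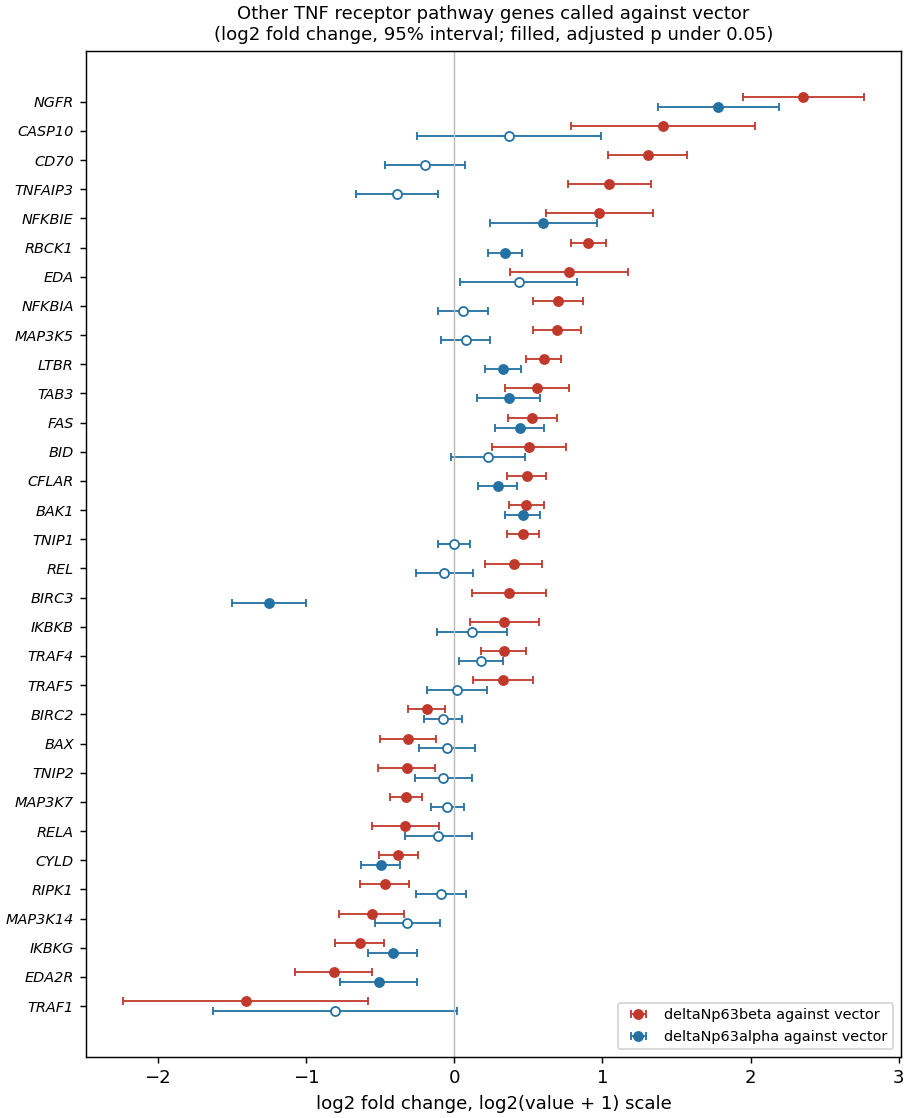
Log2 fold change with its 95% interval (x axis, log2(value + 1) scale) of the 32 pathway genes with other symbols called against vector with at least 1 isoform (y axis). Filled points have an adjusted p under 0.05; BIRC3 is at 0.37 with deltaNp63beta and at -1.25 with deltaNp63alpha, and NGFR at 2.36 with deltaNp63beta and 1.78 with deltaNp63alpha.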

How the data were processed

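Poly(A) RNA-seq libraries of 9 MCF10A cultures were deposited as 1 table each. The deposited signal values are normalized estimated counts per gene. Per the submitters' processing notes the authors used kallisto 0.46.2, GRCh38 and DESeq2, and which step made the numbers is not given in the sources used here. In each library 60.0% to 63.5% of low values (at most 20 times the smallest step) fell within 0.1 step of a whole number of steps. Reads were therefore not recovered and no counting interval was computed. Symbols were matched for 36387 of 41857 gene IDs, and positions came from GENCODE release 29. With R 4.3.3 and limma 3.58.1 (trend, robust), log2(value + 1) of all 9 libraries was fitted with 1 coefficient per group, keeping genes that reached 10 in 3 or more libraries. The pseudocount shrinks changes of low genes. The procedure was run on simulated data with known changes and normally distributed noise, and no result given here rests on that run. P-values set a difference between groups against the spread of replicate cultures within groups. Other differences between the lines cannot be told apart from the isoform. Promoter windows are RefSeq's on GRCh38.p14.

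The members and lists were chosen with earlier results of these data known. Members called in at least 1 comparison are given by library, other tested members mostly by group, and members under the filter by their highest value. Of each pathway list, counts and up to 4 genes per comparison by smallest adjusted p are given, plus genes called in opposite directions. Alternatives were other scalings, pseudocounts and filters, only the 2 groups compared, a replicate block, no mean-variance trend and leaving out each library. Motifs and receptor ratios were added after the values were seen.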

Additional observations from a re-analysis of the deposited data

How the results depend on the processing

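Of 25 member calls, 16 held under all 19 alternatives, the 2 of TNFSF18 held under the 18 run for it (the filter at 50 removes the gene), 7 were lost under at least 1 and 0 changed direction, while 5 of 35 uncalled comparisons passed under at least 1. Of 63 calls of pathway genes, 45 held under all 19 and 1, TRAF1, under the 18 run for it. The causes were not tested. For deltaNp63alpha against vector, the 5 higher members became 3 with only the 2 groups compared and 3 with no mean-variance trend. The 2 lower members became 1 with no filter, 1 with a filter at 50 and 1 with the replicate block. Of pathway genes lower with deltaNp63beta than deltaNp63alpha, 6 in the report, there were 10 with quantile normalization, 3 with no filter, 3 with only the 2 groups and 2 with the replicate block.

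Leaving out 1 library, members called for deltaNp63alpha against vector ranged from 3 (without vector replicate 2) to 7, those higher from 2 to 5 and those lower from 1 to 2. Pathway genes called between the isoforms ranged from 12 (without deltaNp63alpha replicate 3) to 18 and those lower from 2 (without a single deltaNp63alpha library or deltaNp63beta replicate 1) to 6. All genes lower with deltaNp63alpha than in vector, 963 in the report, ranged from 640.0 (without vector replicate 3) to 1022.

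Among uncalled changes, TNFRSF10B for deltaNp63beta against vector was -0.009 with equal totals. Between the isoforms, TNFSF13 was -0.028 with quantile normalization and -0.007 with equal totals, and TNFSF13B was 0.37 with quantile normalization. Leaving out 1 library turned the sign of more uncalled changes. For deltaNp63alpha against vector, TNFRSF6B ranged from -0.063 to 0.11, TNFSF12 from -0.111 to 0.064 and TNFSF13B from -0.078 to 0.91. For deltaNp63beta against vector, TNFRSF10B ranged from -0.019 to 0.074, TNFRSF11A from -0.355 to 0.037, TNFSF13 from -0.112 to 0.003, TNFSF13B from -0.119 to 0.857 and TNFSF14 from -0.498 to 0.004. Between the isoforms, TNFRSF25 ranged from -0.258 to 0.136, TNFSF13 from -0.067 to 0.048 and TNFSF13B from -0.3 to 0.206.

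Libraries share only a replicate number across groups: same-numbered libraries correlated at -0.117 to 0.081 in their deviations from group means, and 2 of 9 correlated best with their own number. With the replicate block, the TNFRSF10C and TNFSF15 calls of deltaNp63alpha against vector were lost (adjusted p = 0.0719 and 0.0675). Depth limits members under the filter, which rest on few fragments.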
